A study of Mus musculus with 6 samples.

Results

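The transcripts described here are those of 10 alpha-granule cargo genes, taken by symbol from the probes of a mouse array on which 30142 genes were named by a probe of their own. The members are F5, Clu, Thbs1, Sparc, Selp, Mmrn1, Srgn, Timp3, Fga and Fgg, and each was named by 1 probe. The alpha granule is the main secretory granule of platelets. It holds adhesive proteins, coagulation factors, matrix proteins and protease inhibitors, which are released or brought to the surface when a platelet is activated. Some of its cargo is made by the megakaryocyte and sorted into the granules before platelets are shed, whereas fibrinogen is made in the liver and taken up from plasma.

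RNA of platelets from mouse blood and of bone marrow cells labelled megakaryocyte progenitors, precursors of the cells that shed platelets, was measured on 6 Clariom D Mouse arrays. The 3 treatments were CTC41.5G-EVs, CTC41-EVs and PBS, with a single array for each in platelets and in progenitors. EVs usually stands for extracellular vesicles, particles that cells release. The meaning of the line names and the strain, age, dose, route and time are not stated in the labels used here. Mice of a group were pooled before hybridisation, so no group had replicates. Treatment was a term of the model, so p-values between cell types rest on how far the cell-type difference varied over the 3 treatments. They do not measure the spread between mice. Per the labels' protocols beads were used to remove leukocytes and erythrocytes from some pools and not from others, without saying which.

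All values are deposited signals on a log2 scale, and a difference of 1 is a doubling of signal. The median over all probes was at most 4.05 on the platelet arrays and at least 4.38 on the progenitor arrays. Markers of platelets and megakaryocytes fitted the platelet label, with 10 of 10 measured markers called higher there and a mean of 10.23 to 10.68 on the platelet arrays, against 5.40 to 5.61 on the progenitor arrays. The progenitor label was less clear. Kit, a progenitor receptor, stood at 4.64 ± 0.09 in platelets and 6.03 ± 0.21 in progenitors (SD, n = 3 each), but Slamf1 and Mki67 of the same list were called higher in platelets. The 8 neutrophil markers averaged 5.21 to 5.46 on the platelet arrays and 7.41 to 7.62 on the progenitor arrays. The 7 measured erythroid markers averaged 6.92 to 7.13 on the platelet arrays and 4.87 to 4.98 on the progenitor arrays. The part of these other cells in the differences below was not tested, and in pooled RNA more cells of a type and more RNA per cell cannot be told apart.

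The first comparison asked how far each cargo transcript differed between platelets and progenitors over the 3 treatments. Of the 10 members, 8 reached the floor for testing, a mean over the 6 arrays of at least 4.23, the median of all probes. All 8 were called higher in platelets by limma (adjusted p up to 0.05, 1.5-fold or more), where 16.2% of the 18875 genes tested were called higher and 25.7% lower. Their differences ran from 0.60 to 5.16, with a median of 3.57, against -0.26 over all genes tested. The mean of each of the 8 over the 3 progenitor arrays also reached 4.23, but that of Mmrn1, at 4.39, lay within the range of the median probe of those arrays, at 4.38 to 4.45. The members were listed with earlier results of these data known, and this count is a description of them.

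F5, coagulation factor V, a cofactor of the enzyme complex that forms thrombin, had the largest difference of the 10. Its signal was 9.87 with CTC41.5G-EVs, 9.49 with CTC41-EVs and 9.55 with PBS on the platelet arrays. On the progenitor arrays it was 4.62 with CTC41.5G-EVs, 4.38 with CTC41-EVs and 4.43 with PBS. The cell types were far apart, with no overlap, and the progenitor values lay close to the floor. The log2 difference was 5.16 (SE 0.13, 35.9-fold, limma adjusted p = 1.93e-06), and its size depends on background in progenitors. It ranked at 24 among the 18875 differences.

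Mmrn1, multimerin 1, a large carrier protein that binds factor V in the granule, stood at 9.04 with CTC41.5G-EVs, 8.37 with CTC41-EVs and 8.64 with PBS on the platelet arrays. On the progenitor arrays it stood at 4.60 with CTC41.5G-EVs, 4.16 with CTC41-EVs and 4.40 with PBS, at or near the floor. The difference was 4.30 (SE 0.12, 19.7-fold, limma adjusted p = 1.93e-06), and its size, too, depends on background in progenitors. In platelets its CTC41.5G-EVs array was the highest and its CTC41-EVs array the lowest. Over genes with a platelet mean of at least 5.07, these held for 40.5% and 47.3%. The order was the same in progenitors, but there the signals were too near background for it to be read.

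The matrix and adhesion proteins of the granule included both large and small differences. Thbs1, thrombospondin 1, an adhesive glycoprotein, had signals of 11.03 with CTC41.5G-EVs, 10.56 with CTC41-EVs and 10.63 with PBS on the platelet arrays. Its progenitor signals were 6.23 with CTC41.5G-EVs, 6.03 with CTC41-EVs and 5.82 with PBS. The difference was 4.71 (SE 0.17, 26.2-fold, adjusted p = 2.19e-06), and the lowest platelet array lay 4.33 above the highest progenitor array. Sparc, a collagen-binding matrix protein also known as osteonectin, had signals of 6.75 with CTC41.5G-EVs, 6.77 with CTC41-EVs and 6.86 with PBS on the platelet arrays. Its progenitor signals were 6.02 with CTC41.5G-EVs, 6.25 with CTC41-EVs and 6.30 with PBS. The difference of 0.60 (SE 0.12, adjusted p = 0.00288) was the smallest of the 8, at 1.52-fold, and only 0.45 separated the lowest platelet array from the highest progenitor array. Without either CTC41.5G-EVs array it was 0.54, under the 1.5-fold threshold. Sparc is also a gene of bone and stroma, and the 8 measured stroma and osteoblast markers averaged 5.16 to 5.30 on the platelet arrays and 5.05 to 5.10 on the progenitor arrays. That average rests on Dcn, decorin, at 7.75 in platelets and 3.67 in progenitors, while Bglap and Col1a1 were called lower by 1.49 and 0.59 as deposited (Col1a1 under no other scaling) and the median of the 6 tested was -0.38.

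Selp encodes P-selectin, the granule membrane receptor that moves to the platelet surface on activation and binds leukocytes. It stood at 7.23 with CTC41.5G-EVs, 6.65 with CTC41-EVs and 6.86 with PBS on the platelet arrays, and at 5.05, 4.93 and 4.97 on the CTC41.5G-EVs, CTC41-EVs and PBS progenitor arrays. The difference was 1.93 (SE 0.12, 3.80-fold, limma adjusted p = 1.50e-05). P-selectin is also a protein of endothelial cells. Of the 7 tested endothelial markers 2 were called higher in platelets, Pecam1 and Esam, which platelets also carry, against 16.2% of all genes. With the other 3 scalings 4 to 5 were called higher, where 21.9% to 40.3% of all genes were.

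Among the proteins bound or protected in the granule, Srgn, serglycin, the core of the granule proteoglycan, had signals of 9.43 with CTC41.5G-EVs, 9.13 with CTC41-EVs and 9.22 with PBS on the platelet arrays. Its progenitor signals were 6.71 with CTC41.5G-EVs, 6.49 with CTC41-EVs and 6.08 with PBS, the widest spread of the 8 tested members in that cell type (SD 0.32). The difference was 2.83 (SE 0.17, 7.12-fold, adjusted p = 1.32e-05). Serglycin is also made by neutrophils, mast cells and basophils, whose markers stood higher on the progenitor arrays. The 6 basophil and mast cell markers averaged 3.84 to 3.93 on the platelet arrays and 4.98 to 5.27 on the progenitor arrays. Of 4 tested, 3 were called lower in platelets, Mcpt8, Prss34 and Cpa3, against 25.7% of all genes. Gzmb was not called, and Fcer1a and Ms4a2 lay below the floor. Monocyte and macrophage markers went the other way on average, with 5.54 to 5.62 on the platelet and 4.92 to 5.00 on the progenitor arrays. Of 6 tested, 2 were called higher in platelets, Lyz2 by 2.94 and Ly6c2 by 0.94, and 0 lower, with a median of 0.33. Under the other 3 scalings 4 to 5 were called higher, where 21.9% to 40.3% of all genes were, against 16.2% as deposited. The part of any of these cells in the Srgn signal was not tested.

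Clu, clusterin, a secreted chaperone, stood at 10.50 with CTC41.5G-EVs, 9.95 with CTC41-EVs and 9.96 with PBS on the platelet arrays, and at 5.62, 5.24 and 5.35 on the CTC41.5G-EVs, CTC41-EVs and PBS progenitor arrays. The difference was 4.73 (SE 0.16, 26.6-fold, limma adjusted p = 2.04e-06). Timp3, a tissue inhibitor of metalloproteinases that binds to matrix, had signals of 6.54 with CTC41.5G-EVs, 6.44 with CTC41-EVs and 6.47 with PBS on the platelet arrays, and of 5.19, 5.11 and 5.15 on the CTC41.5G-EVs, CTC41-EVs and PBS progenitor arrays. Its difference was smaller, at 1.33 (SE 0.10, 2.52-fold, adjusted p = 2.61e-05), and so was its spread over treatments, with an SD of 0.05 in platelets and 0.04 in progenitors (n = 3 each).

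The fibrinogen chains did not share this pattern. Fga, the alpha chain, stood at 3.80 with CTC41.5G-EVs, 3.95 with CTC41-EVs and 3.83 with PBS on the platelet arrays, and at 4.23, 4.34 and 4.30 on the CTC41.5G-EVs, CTC41-EVs and PBS progenitor arrays. Fgg, the gamma chain, stood at 2.73 with CTC41.5G-EVs, 2.73 with CTC41-EVs and 2.81 with PBS on the platelet arrays, and at 3.70, 3.05 and 3.12 on the CTC41.5G-EVs, CTC41-EVs and PBS progenitor arrays. Both had a mean below the floor and were not tested in the main comparison. In the fit without a floor they differed by -0.43 (SE 0.09) and -0.54 (SE 0.16), each less than 1.5-fold. Centring on olfactory receptors turned their sign, to 0.29 and 0.18. Fgb, the beta chain, stood at 3.84 ± 0.19 in platelets and 4.31 ± 0.12 in progenitors (SD, n = 3 each). Albumin, Alb, the defining hepatocyte transcript, was below the floor on average in both, at 3.90 and 4.04. Not all of its list was: of 9 measured hepatocyte markers, 5 reached the floor and 0 were called higher. Apoa1 was called lower, at 4.53 in platelets and 5.35 in progenitors, as deposited and under no other scaling.

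**Figure D1:**
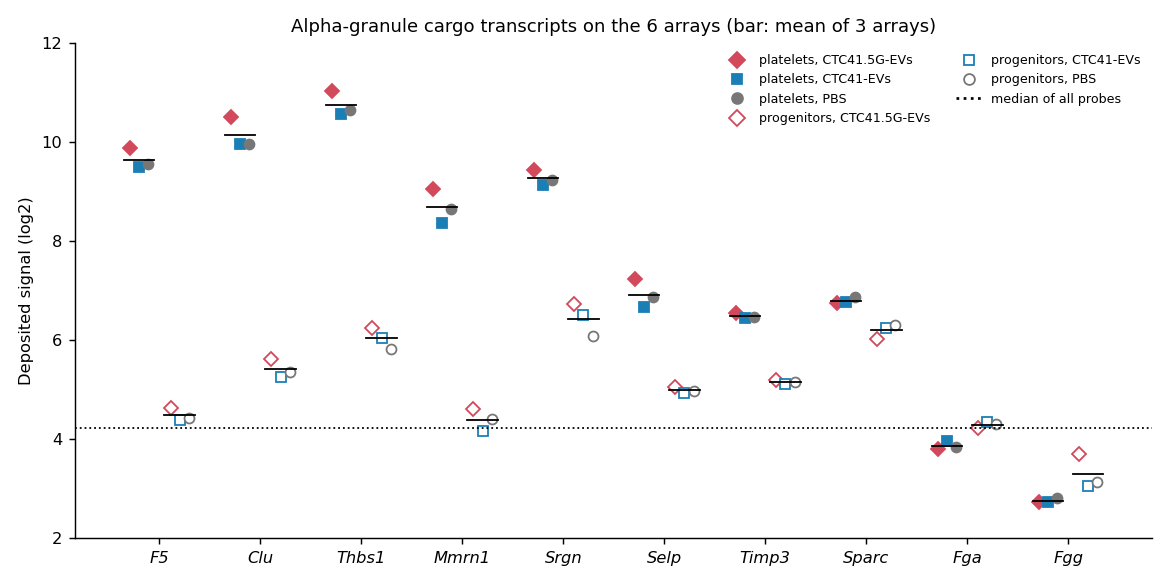
Deposited log2 signal of the 10 members on each array, with platelets (filled) left of progenitors (open), treatments by colour and shape, and a bar for the mean of the 3 arrays of a cell type. For F5, Clu, Thbs1, Mmrn1, Srgn, Selp, Timp3 and Sparc every platelet array lies above every progenitor array, while Fga and Fgg lie near or below the dotted line at 4.23, the median of all probes, with platelets lower.

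In the plot of signals by array, the 8 tested members showed no overlap between cell types, with every platelet array above every progenitor array, as for 24.2% of all genes tested. Every platelet array lay below every progenitor array for 54.2% of genes, so that 78.4% had no overlap in one direction or the other. Scaling of the arrays moved the size of the differences, since the median over all genes tested moved from setting to setting. It was -0.26 for the deposited values, 0.05 after quantile normalization, 0.11 with centred medians and 0.45 with olfactory receptor centring. Over all genes, 3063 were called higher and 4854 lower as deposited, 4140 and 2282 after quantile normalization, 4673 and 1911 with centred medians, and 7609 and 1033 with olfactory receptor centring. The same 8 members were called higher in each of these settings, with medians of 3.57, 3.78, 3.94 and 4.28 in that order. Centring, on medians or on olfactory receptors, raised the difference of every gene by a constant. It could therefore hardly remove a call of higher, and the rise of the medians with centring is that constant.

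**Figure D2:**
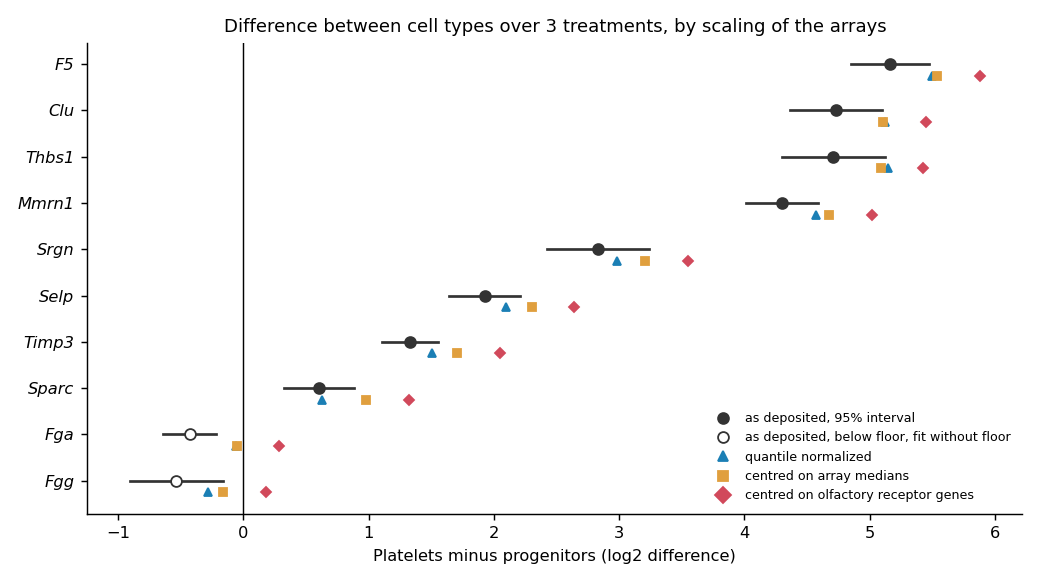
Log2 difference of platelets minus progenitors for each member, with the 95% interval of the limma fit on the values as deposited, and the difference under 3 other scalings in colour. The 8 tested members stay above 0 in all 4 settings, Sparc closest to it at 0.60 to 1.32, and Fga and Fgg (open points, below the floor) cross 0 with olfactory receptor centring.

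Selp and F5, and likewise Fgg and Fga, are neighbours on a chromosome in the RefSeq annotation of GRCm38.p6. Around Selp and F5 the difference was not shared by the whole neighbourhood. Sele, E-selectin of activated endothelium, stood at 3.32 ± 0.17 in platelets and 3.84 ± 0.03 in progenitors (SD, n = 3 each), below the floor. Beyond F5, the thiamine transporter gene Slc19a2 was called lower by 0.66 (SE 0.12, limma adjusted p = 0.00181) as deposited and was not called under the other 3 scalings, while Ccdc181 was called higher in all 4, by 1.13 (SE 0.11, adjusted p = 9.33e-05) as deposited. Of the 9 genes measured at the locus of Fgg and Fga, themselves included, 7 were below the floor and 2 were tested. Plrg1 was not called, and Npy2r, a neuropeptide Y receptor gene, was called lower by 0.75 (SE 0.08, adjusted p = 0.000168) as deposited and not under the other scalings.

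**Figure D3:**
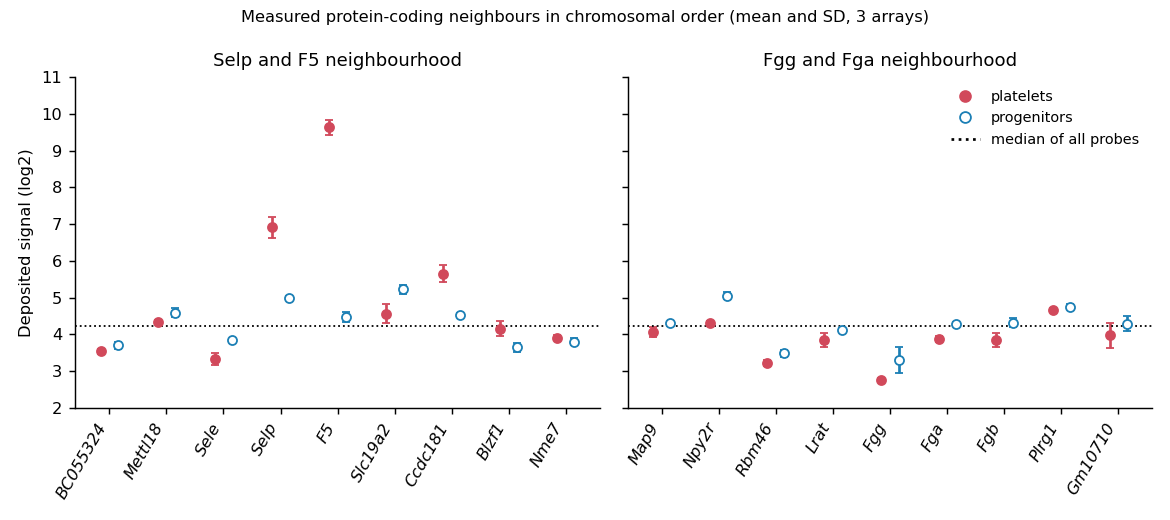
Mean log2 signal with SD over 3 arrays for measured protein-coding neighbours in chromosomal order, platelets (filled) beside progenitors (open). F5 and Selp stand at 9.64 and 6.91 in platelets, against 4.47 and 4.98 in progenitors, and both cell types lie near or below the dotted median of all probes for the 3 fibrinogen genes.

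Since members stood higher in platelets together, the 250 bases before transcription starts of F5, Selp, Mmrn1, Srgn, Timp3 and Sparc, and of Fga and Fgg, which were not higher, were searched for short motifs of factors active in megakaryocytes and of general promoters. Both strands were searched. For GATA factors the letters were AGATAA or, in the other form, TGATAA. For ETS factors they were CCGGAA or, in the other form, AGGAAG. The GC box was searched as GGGCGG, while the TATA box was searched as TATAAA. Clu and Thbs1 were not searched. Of 9 windows for these 8 genes, with 2 starts for Srgn, from RefSeq on GRCm38.p6, 5 held at least 1 motif and are shown, 5′ to 3′ on the gene's strand and ending at the base before the start, with the motifs in capitals. No 2 matches overlapped. The share of all windows that held at least 1 of these motifs was not counted, so the 5 of 9 cannot be set against it. Whether the motifs go with the signals was not tested.
F5, chr1:164151585-164151834 (+): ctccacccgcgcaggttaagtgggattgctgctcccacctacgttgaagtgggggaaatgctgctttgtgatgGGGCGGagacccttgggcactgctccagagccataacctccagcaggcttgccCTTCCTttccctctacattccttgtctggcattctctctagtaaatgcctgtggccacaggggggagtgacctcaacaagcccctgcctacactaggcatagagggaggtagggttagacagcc
Selp, chr1:164115014-164115263 (+): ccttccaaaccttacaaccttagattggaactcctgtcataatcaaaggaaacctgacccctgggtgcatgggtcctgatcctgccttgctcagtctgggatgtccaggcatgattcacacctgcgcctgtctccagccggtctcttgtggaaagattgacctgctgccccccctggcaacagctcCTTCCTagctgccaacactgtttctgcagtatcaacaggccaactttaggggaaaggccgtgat
Mmrn1, chr6:60944067-60944316 (+): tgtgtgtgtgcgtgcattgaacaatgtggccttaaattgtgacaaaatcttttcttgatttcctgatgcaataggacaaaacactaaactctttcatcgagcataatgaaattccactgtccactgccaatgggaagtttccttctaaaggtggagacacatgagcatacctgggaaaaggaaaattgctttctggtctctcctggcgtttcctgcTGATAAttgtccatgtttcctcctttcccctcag
Srgn, chr10:62527446-62527695 (-): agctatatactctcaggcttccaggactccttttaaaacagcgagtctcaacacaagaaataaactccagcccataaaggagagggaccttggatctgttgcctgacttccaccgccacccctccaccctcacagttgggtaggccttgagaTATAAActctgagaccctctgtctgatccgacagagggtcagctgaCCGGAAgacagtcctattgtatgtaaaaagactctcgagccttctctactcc
Timp3, chr10:86300162-86300411 (+): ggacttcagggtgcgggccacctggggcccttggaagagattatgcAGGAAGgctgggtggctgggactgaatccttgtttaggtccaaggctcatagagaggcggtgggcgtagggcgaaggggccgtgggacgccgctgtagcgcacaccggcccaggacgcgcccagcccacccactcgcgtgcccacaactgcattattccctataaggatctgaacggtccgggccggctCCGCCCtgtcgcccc
Mmrn1 held TGATAA 34 bases before its start, and a GATA motif of either form was in 16.6% of all 32851 windows. An ETS motif of either form, found in 38.2% of all windows, was in F5 (124 bases before the start, reverse strand), Selp (64, reverse strand), Srgn (52) and Timp3 (204). A GC box, in 32.7% of all windows, was in F5 and Timp3, and TATAAA, in 12.4%, was in Srgn, 98 bases before the start. The windows of Sparc, Fga and Fgg and a further start of Srgn held none of these letters. A match is a string in a window and not a shown binding site.

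Other alpha-granule cargo went both ways. Of 24 further cargo genes, 22 were named by a probe of their own and 20 reached the floor, of which 10 were called higher, 2 lower and 8 not, with a median of 0.75 against -0.26 over all genes tested, of which 16.2% were called higher and 25.7% lower. The count of 10 became 12 after quantile normalization, 12 with centred medians and 16 with olfactory receptor centring, where 21.9%, 24.8% and 40.3% of all genes were called higher. The chemokine genes Ppbp and Pf4 rose by 6.94 and 6.29, Angpt1, angiopoietin 1, by 4.86 and F13a1, the A subunit of factor XIII, by 3.72 (SE 0.12 to 0.21, limma adjusted p between 1.93e-06 and 2.66e-06). Angpt1 lay below the floor in progenitors, at 3.49. Vwf, von Willebrand factor, rose by 2.90 (SE 0.15) and Tgfb1, transforming growth factor beta 1, by 1.95 (SE 0.14). Timp1 and Vtn, vitronectin, a plasma protein, were called lower by 0.79 and 0.64 as deposited, but under none of the other 3 scalings, and the sign of Vtn turned to 0.08 with olfactory receptor centring. The growth factor genes Pdgfa, Vegfa, Pdgfb, Igf1 and Egf were not called as deposited, with differences of 0.47, -0.23, -0.12, 0.04 and -0.28. Pdgfa was called higher under the other 3 scalings, and Igf1 and Pdgfb with olfactory receptor centring, while Vegfa, Pdgfb and Egf had a positive sign under all 3.

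Of 15 receptors and partners of the cargo, 13 were tested, 6 were called higher and 0 lower, with a median of 0.14. They were the integrin genes Itgb1 (4.15), Itgb3 (3.53), Itga2b (3.03) and Itgb2 (2.48), Cd47 (3.22), a receptor of thrombospondin, and Cd44 (2.76). Itga2b and Itgb3 encode the fibrinogen receptor of platelets. Itgb1 lay below the floor in progenitors, at 3.92. Selplg, the ligand of P-selectin on leukocytes, stood at 6.15 ± 0.06 in platelets and 6.31 ± 0.05 in progenitors (SD, n = 3 each, adjusted p = 0.208). With olfactory receptor centring 10 of the 13 were called higher, against 40.3% of all genes and 16.2% as deposited.

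Of 14 genes of granule biogenesis, 11 were tested and 3 were called higher, against 16.2% of all genes, with a median of 0.06. They were the transcription factor genes Nfe2 (2.16) and Gfi1b (1.33) and Ap3b1 (1.29), a subunit of the adaptor complex AP-3. The tethering genes Vps33b, Vps16, Vps18 and Vps11 were not called, at -0.16, -0.55, -0.56 and -0.22, each under 1.5-fold, nor was Vps39, at 0.06, and Vps41, at 0.31, was below the floor. The signs of Vps33b and Vps11 were positive under the other 3 scalings, those of Vps16 and Vps18 with olfactory receptor centring, where Vps39 was called higher. The count rose to 5 after quantile normalization and with centred medians, and to 7 with olfactory receptor centring, while the share of all genes called higher rose to 21.9%, 24.8% and 40.3%.

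Relatives of the members by sequence family did not follow them as a group. Of 14 tested, 2 were called higher, Sparcl1 (1.19, SE 0.12) and Timp2 (0.98, SE 0.14), and 1 lower, Timp1, with a median of -0.29, where 16.2% of all genes were called higher. The thrombospondin genes Thbs2, Thbs3 and Thbs4 differed by 0.19, -0.45 and -0.40 and were not called, against 4.71 for Thbs1. Mmrn2, multimerin 2 of endothelium, differed by -0.56 and was not called, against 4.30 for Mmrn1. Their median turned positive under the other scalings, at 0.04 after quantile normalization, 0.09 with centred medians and 0.43 with olfactory receptor centring, where 6 of the 14 were called higher, against 40.3% of all genes. With that centring Thbs2 was called higher and the signs of Thbs3, Thbs4 and Mmrn2 turned.

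**Figure D4:**
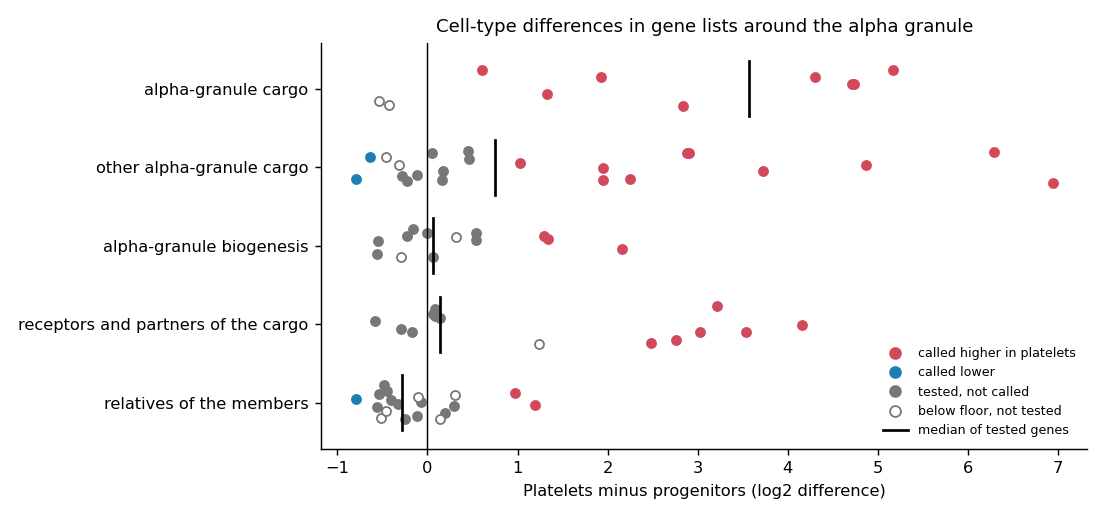
Log2 difference of platelets minus progenitors for each gene of 5 lists, coloured by call, with a bar at the median of the tested genes. The cargo genes run from -0.54 to 5.16, and the medians of the tested genes are 3.57 for them, 0.75 for other cargo, 0.06 for biogenesis, 0.14 for receptors and partners and -0.29 for relatives.

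The 2 tested genes with the profile nearest to each member were found by the root mean square distance over the 6 arrays, after each gene was centred on its own mean. Nearest to Thbs1 was Parvb, beta-parvin, at 0.03 on the log2 scale, and nearest to Selp was Tln1, talin 1, at 0.04. Nearest to F5 were Sh3bgrl2 (0.07) and Npy (0.09), nearest to Clu were the tetraspanin gene Cd9 (0.10) and Thbs1 itself (0.10), and nearest to Mmrn1 were Prkar2b (0.11) and Tubb2a (0.12). For Srgn they were Gm7808 and Elf1 (0.09 each), for Timp3 Arih1 and Dock5 (0.04 and 0.05) and for Sparc Anapc11 and Gm15618 (0.04 each). A small distance is a likeness over 6 arrays dominated by the cell type.

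The next comparison asked whether the cargo transcripts differed with treatment. Within a cell type this was 1 array against 1, so no test was possible, and the comparisons share arrays. Values were read for members with a 3-array mean of at least 5.07 in that cell type, the 75th percentile over probes, which took in 8 members in platelets and 5 in progenitors.

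In platelets, 7 of these 8 members were highest on the CTC41.5G-EVs array, as were 40.5% of all 8247 genes over the floor, and the exception was Sparc. The CTC41-EVs array was the lowest of the 3 for 7 of 8, against 47.3% of genes. The differences of CTC41.5G-EVs minus CTC41-EVs ran from -0.03 for Sparc to 0.68 for Mmrn1, with a median of 0.43 against 0.07 over all genes, and 7 of 8 lay above 0, against 61.0% of genes. Mmrn1 was the 1 member past 1.5-fold, as for 2.79% of genes upwards and 0.885% downwards, and Selp at 0.57 and Clu at 0.55 lay just under it. Against PBS, CTC41.5G-EVs gave differences from -0.12 for Sparc to 0.54 for Clu, with 0 members past 1.5-fold and a median of 0.34 against 0.01 over all genes, where 0.643% of genes were higher and 1.31% lower by 1.5-fold. Again 7 of 8 lay above 0, against 51.4% of genes. Other alpha-granule cargo shifted less. Without a floor, the 22 further cargo genes measured had a median of 0.10 for CTC41.5G-EVs minus CTC41-EVs, against 0.34 for the 10 members. For CTC41.5G-EVs minus PBS the medians were 0.13 and 0.26, so the shift of the members is not one of alpha-granule cargo in general.

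The CTC41-EVs platelet array lay below the PBS array for all 8, by 0.01 for Clu to 0.28 for Mmrn1, with 0 members past 1.5-fold, where 2.34% of genes were lower by that much and 38.9% were above 0. This direction depended on scaling. After quantile normalization 5 of the 8 lay above 0, Clu by 0.26 and F5 by 0.17 among them, and Mmrn1 minus PBS was -0.03. Quantile normalization also moved the difference of CTC41.5G-EVs minus CTC41-EVs to 0.43 for Mmrn1, 0.05 for F5 and about 0 for Srgn, where the deposited values gave 0.68, 0.38 and 0.30. The median of the 8 members for that contrast fell from 0.43 to 0.13, against 0.02 over all genes, and 6 of 8 lay above 0. The size of this shift, too, depended on scaling. The platelet and megakaryocyte markers had medians of 0.44 for CTC41.5G-EVs minus CTC41-EVs and 0.37 for CTC41.5G-EVs minus PBS in platelets. For CTC41-EVs minus PBS their median was -0.14, but not all went down. Pf4 and Ppbp, themselves alpha-granule cargo, rose from 12.35 and 12.10 with PBS to 12.78 and 12.42 with CTC41-EVs, while the other measured markers were lower. The part of the markers in the cargo differences was not tested.

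In progenitors, 4 of 5 members were highest on the CTC41.5G-EVs array, near the 60.6% of all 10858 genes over the floor, again with Sparc as the exception, which was lowest there. Srgn was the 1 member past 1.5-fold, higher with CTC41.5G-EVs than with PBS by 0.63, where 5.47% of genes were higher by that much. It was 0.41 higher with CTC41-EVs than with PBS, a contrast in which 2 of 5 members lay above 0, against 62.7% of genes, and 0 were past 1.5-fold, against 3.09%. Under quantile normalization, centred medians and olfactory receptor centring the CTC41.5G-EVs difference of Srgn was 0.57, 0.56 and 0.57, under the threshold. Neutrophil markers on the same arrays had medians of 0.19 for CTC41.5G-EVs minus PBS and 0.20 for CTC41-EVs minus PBS, and basophil and mast cell markers had 0.27 and 0.37. Their part in the Srgn difference was not tested. Thbs1 differed by 0.41 between CTC41.5G-EVs and PBS, and Clu by 0.26. For CTC41.5G-EVs minus CTC41-EVs, 4 of 5 lay above 0, against 68.5% of genes, and 0 were past 1.5-fold, which 0.608% of genes exceeded upwards and 0.783% downwards. The CTC41-EVs array was the lowest of the 3 for 2 of 5 members, against 29.0% of genes. Fgg was 0.64 higher with CTC41.5G-EVs than with CTC41-EVs, but at 3.70 and 3.05 both signals lay below the floor.

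**Figure D5:**
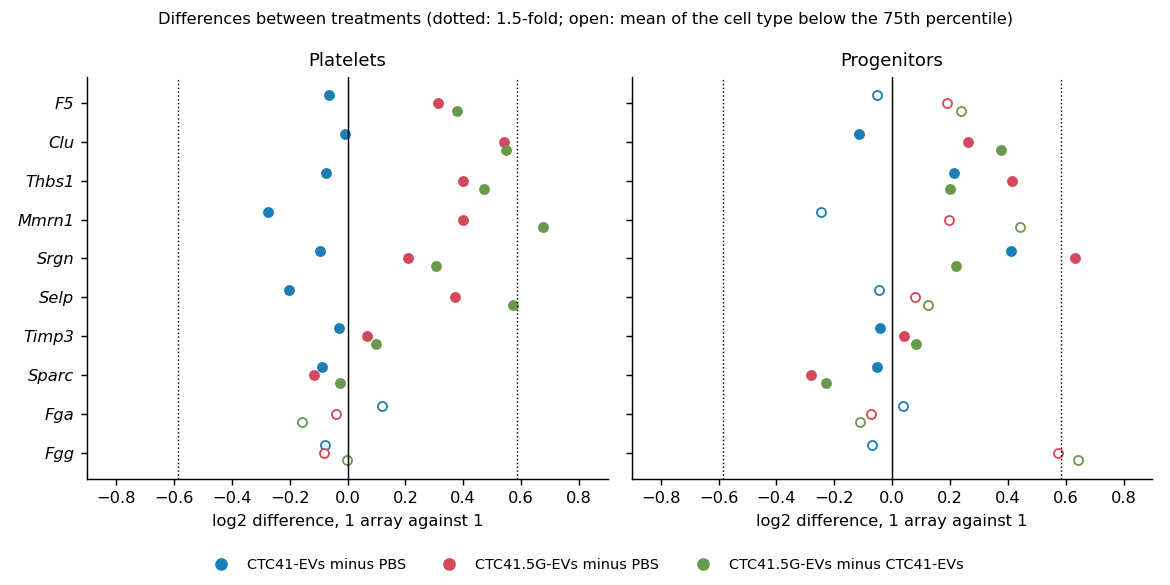
Log2 difference between treatments for each member, 1 array against 1, in platelets (left) and progenitors (right), with dotted lines at 1.5-fold and open points for members whose mean in that cell type is below the 75th percentile of all probes. In platelets the red and green points of F5, Clu, Thbs1, Mmrn1, Srgn and Selp lie between 0.21 and 0.68, and those of Sparc lie below 0.

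The differences averaged over both cell types lay above 0 for 7 of 8 members for CTC41.5G-EVs minus CTC41-EVs (63.0% of genes), 7 of 8 for CTC41.5G-EVs minus PBS (66.8%) and 2 of 8 for CTC41-EVs minus PBS (54.8%). In this average, where the additive limma model allowed a test, no member was called for any treatment contrast, as for 0.0% of all genes in each. For CTC41.5G-EVs minus CTC41-EVs, 2 of 8 members had an unadjusted p under 0.05, as did 6.13% of all genes, and for the other 2 contrasts 0 of 8 did, against 3.06% for CTC41-EVs and 6.2% for CTC41.5G-EVs over PBS. The 2 were Mmrn1, with a difference of 0.56 (SE 0.15, limma adjusted p = 0.725), and Clu, with 0.46 (SE 0.19, adjusted p = 0.805). The p-values of these averages rest on how far the treatment differences varied between the cell types, and do not measure the spread between mice. In progenitors F5, Selp and Mmrn1, counted among the 8, had means below the floor set above for reading treatment differences. The 0.56 of Mmrn1 includes a progenitor difference of 0.44 (4.60 with CTC41.5G-EVs, 4.16 with CTC41-EVs), from signals too near background to be read. For CTC41.5G-EVs minus PBS the largest were Srgn at 0.42 (SE 0.21, 95% interval -0.08 to 0.92) and Thbs1 at 0.41 (SE 0.21, 95% interval -0.09 to 0.91), with limma adjusted p of 0.803 and 0.804. For CTC41-EVs minus PBS the members ran from -0.26 for Mmrn1 (95% interval -0.61 to 0.09) to 0.16 for Srgn (95% interval -0.34 to 0.66). Whether a treatment difference itself differed between platelets and progenitors was not tested, since each group was 1 array.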

How the data were processed

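The deposited values are log2 signals of 72688 probes on 6 Clariom D Mouse arrays, from 0.23 to 14.06, made by the authors with Affymetrix Expression Console 1.4.1.46 per the submitters' processing notes, while the series description names MAS5.0. The scaling between arrays and the genome build are not stated there. The values were used as deposited. Of the probes, 30604 named 1 gene symbol, 2146 several and 39938 none, per the platform annotation, and only the first kind was used. Symbols were updated through 22818 Entrez matches to RefSeq, and 355 genes with several probes took the probe with the highest mean. Precision is limited by the 6 arrays.

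Cell types were compared with limma 3.58.1 in R 4.3.3, with additive terms for cell type and treatment, an intensity trend, and Benjamini-Hochberg adjustment over 18875 genes whose mean reached the 50th percentile of all probes. The Wilcoxon test of the series description could not be used on 1 array a group. On simulated data for this comparison, over 18875 genes, 60% of genes changed by 1 and 87% of those changed by 2 on the log2 scale were called, with 3 false calls. Only 100 genes were changed by each amount, far fewer than the 3063 called higher and 4854 called lower in the data. The adjustment was therefore stricter in the simulation, and these shares do not give the recovery in the data. Each member is named with all its values. From other lists the 2 to 4 largest called differences are named, and further genes (Vwf, Tgfb1, the growth factors, Selplg, the Vps genes, Itgb2, Cd44, family relatives, chromosomal neighbours, and the markers named singly) were chosen after their values were seen. The members and lists were chosen with earlier results of these data known. Alternatives covered scaling, floors, fold threshold, probe choice, the model and leaving out each array.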

Additional observations from a re-analysis of the deposited data

How the results depend on the processing

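The 8 members called higher in platelets kept that call in each of 14 alternatives, except Sparc, whose difference was 0.54 without either CTC41.5G-EVs array and which also missed a 2-fold threshold. Not all of these alternatives were free to change a call. Each member had 1 probe, so the choice of probe left its values as they were. Leaving out either array of a treatment gave the same differences, and centring raised the difference of every gene by a constant. The count of members called higher was 7 to 8 when 1 array was left out, and 0 members were called lower or for an averaged treatment contrast in any alternative run. Differences ranged from 5.12 to 5.88 for F5 and from 0.54 to 1.32 for Sparc over these alternatives. Counts of members past 1.5-fold between single arrays rest on 1 gene each and moved with the setting. For CTC41.5G-EVs minus CTC41-EVs in platelets the count of 1 became 0 after quantile normalization, 2 with centred medians and 0 at 2-fold. For CTC41.5G-EVs minus PBS in progenitors the count of 1 became 0 after quantile normalization, 0 with centred medians, 0 with olfactory receptor centring and 0 at 2-fold. For CTC41.5G-EVs minus CTC41-EVs in progenitors the count of 0 became 1 without a floor, through Fgg, which lies below it. The cause of these changes was not tested. No paired analysis was possible because the labels give no replicate numbers, other than by treatment, which is already a term of the model. Without that term 8 members were called.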
